A study of Mus musculus with 4 samples.

Results

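The SMAD family comprises 8 mouse genes, Smad1 to Smad7 and Smad9, and the peaks of SMAD4 binding at these genes were examined in alveolar macrophages (AMs), which reside in the airspaces of the lung. A peak was assigned to a gene when its summit, the base with the most stacked fragments, lay in the gene body or within 50 kb of a curated transcription start site (TSS), on either side. By this rule, which used position alone, 10 of 16369 peaks in replicate 1 and 13 of 19015 peaks in replicate 2 belonged to a SMAD family gene. Merging peaks of both replicates that overlapped by at least 1 bp gave 8 shared regions at these genes of 10964 in the genome. AMs were obtained by bronchoalveolar lavage and cell sorting from 9-wk-old wild-type C57BL/6J mice, in aliquots of 200000 cells. SMAD4 was profiled by HT-ChIPmentation with a mix of antibodies raised against SMAD4. In this method a transposase cuts the precipitated chromatin on the beads and attaches the sequencing adapters. There were 2 immunoprecipitated libraries (replicates 1 and 2) and 2 input libraries, and all came from untreated AMs, so that no second condition could be compared. Whether the replicates came from separate mice, or from cells pooled over mice, was not stated.

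SMAD proteins carry signals of the TGFβ superfamily from receptors at the membrane to DNA. Receptor-regulated SMADs are phosphorylated by the activated receptors, SMAD1, SMAD5 and SMAD9 mainly after bone morphogenetic protein (BMP) signals and SMAD2 and SMAD3 after TGFβ or activin, and they then form complexes with the common partner SMAD4 in the nucleus. The inhibitory SMADs, SMAD6 and SMAD7, act against these signals at the receptors, and their genes are known to be induced by the same signals, as a negative feedback. TGFβ is required for the development and maintenance of AMs.

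The centre of a shared region is the mean of both summits. Sequence from the shared region is shown for 3 of the genes, to set the region that covers a start site beside regions far from one. All are read from the plus strand of the RefSeq genome, build GRCm38 (mm10), and capitals mark consensus strings found by search on both strands. The Smad6 stretch, chr9:64022052-64022270, begins with the 8 bases that open exon 1, since the gene is on the minus strand. It runs through the upstream flank to the end of the region and leaves out the centre (64022040) and both summits. Its capitals are the palindrome GTCTAGAC, the SMAD binding element, and a match to TTGCNNAA, the string read by C/EBP factors. The Smad3 window, chr9:63780690-63780890, and the Smad1 window, chr8:79447362-79447562, reach 100 bp to each side of the centre. In the Smad3 window the capitals mark a C/EBP match, and in the Smad1 window a match to TGTGGTT, the string read by RUNX factors, here on the minus strand.
Smad6: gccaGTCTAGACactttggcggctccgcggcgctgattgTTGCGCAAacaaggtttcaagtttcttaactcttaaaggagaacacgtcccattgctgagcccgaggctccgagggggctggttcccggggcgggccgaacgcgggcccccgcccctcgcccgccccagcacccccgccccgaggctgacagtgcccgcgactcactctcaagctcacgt
Smad3: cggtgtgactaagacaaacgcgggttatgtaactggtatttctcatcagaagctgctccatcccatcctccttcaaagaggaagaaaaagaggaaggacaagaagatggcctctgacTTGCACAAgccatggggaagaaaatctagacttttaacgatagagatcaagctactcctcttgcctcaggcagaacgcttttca
Smad1: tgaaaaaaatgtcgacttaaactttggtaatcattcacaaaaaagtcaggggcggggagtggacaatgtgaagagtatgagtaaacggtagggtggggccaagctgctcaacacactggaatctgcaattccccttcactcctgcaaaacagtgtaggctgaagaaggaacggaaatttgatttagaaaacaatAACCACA
The Smad6 stretch had 65.8% G and C and 21 CpG dinucleotides over 219 bp. The Smad3 and Smad1 windows had 45.8% and 42.8%, with 5 and 4 CpG dinucleotides over 201 bp each. These 2 windows were centred and the Smad6 stretch was not. The 201 bp about the Smad6 centre had 56.7% G and C.

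SMAD4 peaks were found in both replicates at 6 of the 8 genes. Smad1, Smad2, Smad3 and Smad6 had 1 shared region each, Smad4 and Smad7 had 2 each, and Smad5 and Smad9 had no peak in either replicate. Over all 20923 protein-coding genes, 39.1% had at least 1 shared region by the same rule. The window of a gene grows with its length, and among the 18879 genes whose windows were within the range of the SMAD family the share was 38.4%. Peaks of replicate 1 lay in the windows of 6 SMAD family genes and of 46.6% of all genes, and peaks of replicate 2 in those of the same 6 genes and of 53.4%. A single shared region was present at 19.7% of all genes and 2 regions at 9.13%. No SMAD family gene had 3 or more regions, which 4.48% (3 regions) and 5.83% (4 or more) of genes had.

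**Figure D1:**
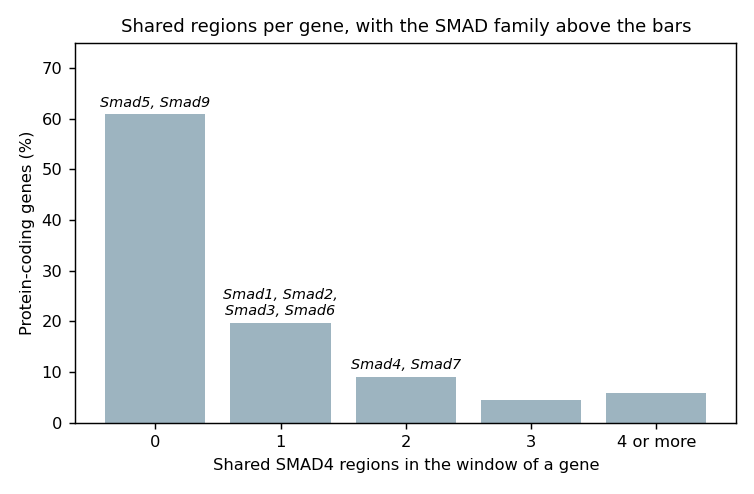
Percentage of the 20923 protein-coding genes (vertical axis) by the number of shared SMAD4 regions in their window (horizontal axis), with the SMAD family genes written above the bar they belong to. Smad5 and Smad9 are in the class without a region, which holds 60.9% of genes, Smad1, Smad2, Smad3 and Smad6 in that with 1 region and Smad4 and Smad7 in that with 2.

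The partner share was 9 of 10 peaks (90.0%) in replicate 1 and 8 of 13 (61.5%) in replicate 2 at the SMAD family genes, beside 69.4% and 59.2% over all peaks. A region in the window of a gene can lie closer to another gene. Of the 8 shared regions, 4 were nearest to the TSS of the SMAD family gene itself, at Smad1, Smad2, Smad3 and Smad6, while those at Smad4 and Smad7 were nearest to other genes. Genes with a region nearest to their own TSS made up 20.0% of all protein-coding genes. Regions were at promoters (1 kb upstream to 100 bp downstream of a TSS) of 2 SMAD family genes, Smad6 and Smad7, both inhibitory, and 3.1% of all genes had a promoter region. Of the other 6 regions, 4 were in introns and 2 were intergenic. Of those in introns, only the Smad2 region was in an intron of a SMAD family gene. Over all shared regions 6.42% were in promoters, 49.3% in introns and 40.5% intergenic.

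**Figure D2:**
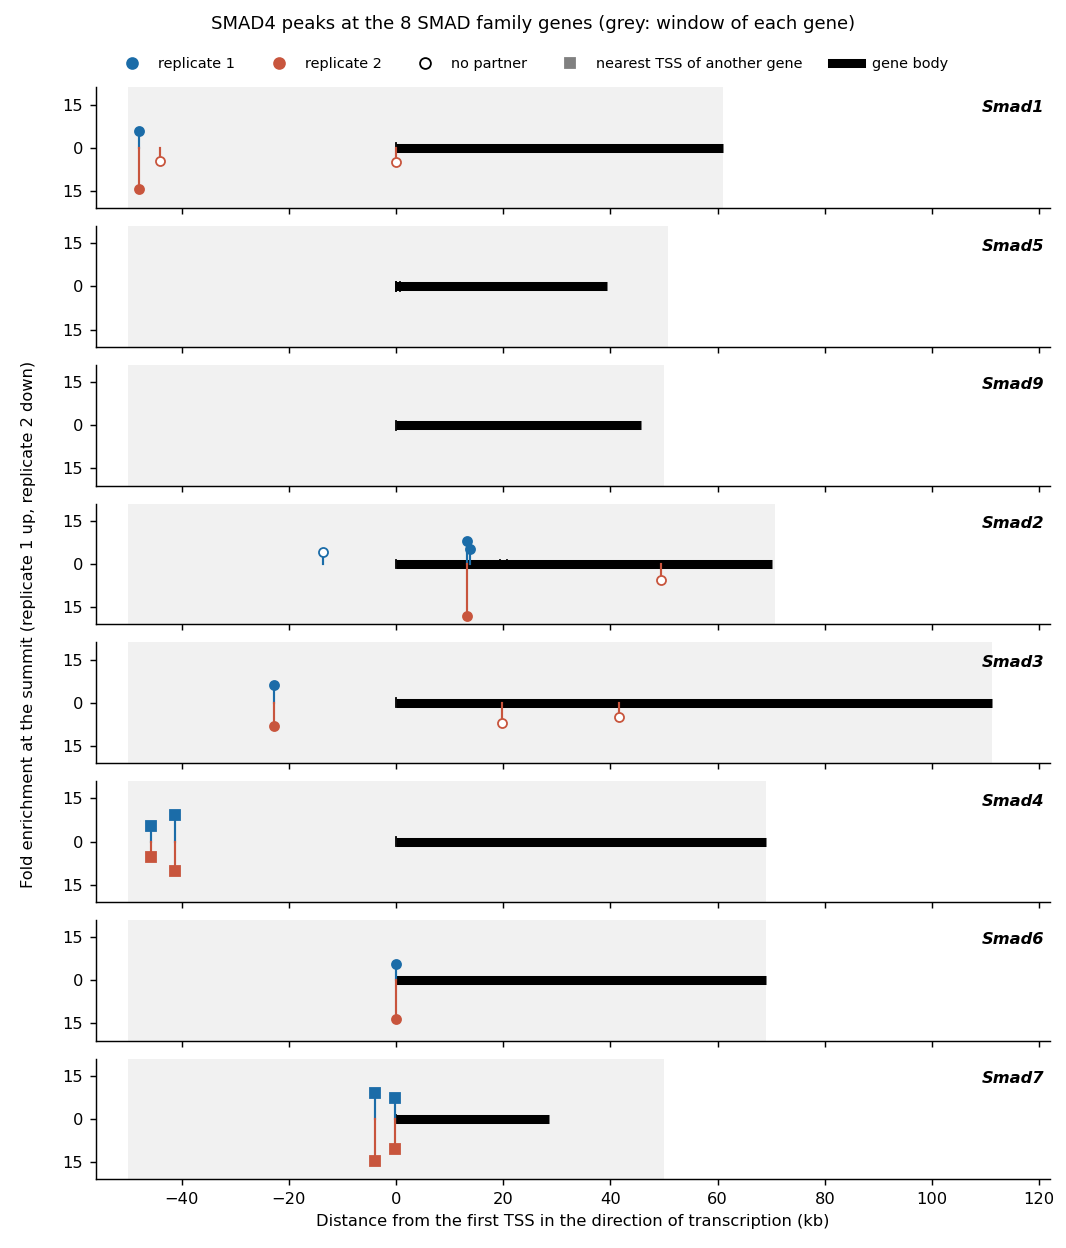
Summits of all 23 SMAD4 peaks at the 8 genes by their distance from the first TSS in the direction of transcription (kb, horizontal axis) and their fold enrichment over the control level (vertical axes, replicate 1 upwards and replicate 2 downwards). Filled marks have a partner in the other replicate, squares are nearest to the TSS of another gene, black bars are gene bodies and grey areas the windows, and the rows of Smad5 and Smad9 are empty.

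Fold enrichment is the number of fragments stacked at the summit plus 1 over the control level plus 1, as the peak caller gave it. The fragments behind each summit were solved from the fold and its p-value and are given with exact 95% Poisson intervals, which cover counting error only and, for the fold, take the control level as fixed. At most summits the control level equalled the genome-wide background, 2.08 fragments in replicate 1 and 1.22 in replicate 2, so that equal numbers of fragments give a higher fold in replicate 2. The median ratio of replicate 2 to replicate 1 was 1.39 over all shared regions.

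Smad1, which encodes a receptor-regulated SMAD of the BMP branch, lies on chromosome 8 (79338395 to 79399428, minus strand). Its shared region (79447234 to 79447694, 461 bp) was intergenic, 48.0 kb upstream of the TSS, just inside the 50-kb limit, and Smad1 was the nearest gene by curated transcripts. With predicted RefSeq transcripts added, the nearest was Gm39205, 7121 bp away. Fold enrichment was 5.85 in replicate 1 and 14.4 in replicate 2, a mean of 10.1 ± 6.07 (SD, n = 2). These folds rested on 17 fragments (9.90 to 27.2) and 31 fragments (21.1 to 44.0). Set against the control level, the counting interval of the fold was 3.54 to 9.17 in replicate 1 and 9.96 to 20.3 in replicate 2. These fold intervals did not overlap, while those of the fragments did. The higher folds of replicate 2 over all shared regions, a median ratio of 1.39, were not taken out. Replicate 2 alone had 2 further peaks, both weak. At the Smad1 promoter a peak of 119 bp (79399448 to 79399566) with its summit 48 bp upstream of the TSS had a fold of 4.96 on 10 fragments. The other was 44.1 kb upstream with a fold of 4.56 on 12 fragments. The weakest peaks of the list of replicate 2 held 7 fragments and those of replicate 1 held 9, so that a Smad1 promoter signal of fewer fragments in replicate 1 was not detectable at this depth.

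Beyond the 50-kb limit, 4 more shared regions had Smad1 as their nearest gene by curated transcripts, at 75.1, 75.7, 81.1 and 99.5 kb upstream. The first of these had folds of 10.7 and 14.9 in replicates 1 and 2, a mean of 12.8 ± 2.95 (SD, n = 2). Within 250 kb of the TSS, 5 shared regions lay around Smad1, and all were upstream and nearest to it by curated transcripts. With predicted transcripts added, the TSS of Gm39205 was closer than that of Smad1 to each of the 5. The rule thus took the one closest to the gene from an upstream group of 5.

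Smad5 and Smad9 encode the other receptor-regulated SMADs of the BMP branch, and no peak of either replicate was in their windows. Smad5 (chromosome 13, 56703010 to 56742378, plus strand) had its closest shared region 71.6 kb upstream (56631353 to 56631549), with folds of 5.52 and 7.67, and the nearest TSS to that region was that of Tgfbi, a matrix protein gene named for its induction by TGFβ. Smad9 (chromosome 3, 54755582 to 54801269, plus strand) had no shared region within 250 kb, and the closest was 1223 kb away. A site with fewer fragments than the weakest listed peaks was not detectable at this depth.

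Smad2, which encodes a receptor-regulated SMAD of the TGFβ and activin branch, lies on chromosome 18 (76241701 to 76311747, plus strand) with 3 curated TSSs. Its shared region (76254657 to 76255656) was in intron 1 of the transcript from the first TSS, 6149 bp upstream of the TSS at 76261121, and joined 2 peaks of replicate 1 with 1 of replicate 2. Fold enrichment at the highest summit was 7.98 in replicate 1 and 18.1 in replicate 2, a mean of 13.0 ± 7.15 (SD, n = 2). The second peak of replicate 1 had a fold of 5.37 on 17 fragments. At 1000 bp, this region was wider than 96.7% of all shared regions.

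The Smad2 region had 32 fragments (21.9 to 45.2) in replicate 1 and 40 (28.6 to 54.5) in replicate 2. Its counting intervals of the fold, 5.53 to 11.2 and 13.0 to 24.5, did not overlap. The control level in replicate 1 was 3.14 fragments, above the background of 2.08, and its part in the lower fold of that replicate was not tested. Peaks without a partner lay 13.6 kb upstream of the first TSS in replicate 1 (fold 4.22, 12 fragments) and in intron 5 in replicate 2 (fold 5.41, 11 fragments). No other shared region lay within 250 kb of a Smad2 TSS.

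Smad3, the other receptor-regulated SMAD gene of the TGFβ and activin branch, lies on chromosome 9 (63646767 to 63757994, minus strand). Its shared region (63780585 to 63780955, 371 bp) was intergenic and 22.8 kb upstream of the TSS. Fold enrichment was 6.17 in replicate 1 and 8.12 in replicate 2, a mean of 7.15 ± 1.38 (SD, n = 2), on 18 and 17 fragments. With predicted RefSeq transcripts added to the curated ones, the TSS of the gene model Gm35941 was 39 bp from the centre of this region, and Smad3 was no longer the nearest gene. In the 111 kb of the Smad3 gene body no shared region was found. Replicate 2 alone had a peak 19.7 kb into the gene (63738046 to 63738359, fold 7.22, 15 fragments), the strongest of the 6 peaks without a partner at the SMAD family genes, and another 41.6 kb into it with a fold of 4.96. A further shared region, nearest to Smad3 by curated transcripts, lay beyond the limit, 92.5 kb upstream, with folds of 4.55 and 6.32.

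Smad4 encodes the protein that was immunoprecipitated, and lies on chromosome 18 (73634790 to 73703791, minus strand). No peak of either replicate was in its body or at its promoter. Both of its shared regions were at the far upstream end of the window, in introns of Elac1, a neighbouring gene for a tRNA-processing enzyme, whose TSS was nearer. The region 41.3 kb upstream of Smad4 (73744930 to 73745313) was in intron 2 of Elac1, 9379 bp from the Elac1 TSS. Its fold was 9.10 in replicate 1 and 10.4 in replicate 2, a mean of 9.74 ± 0.904 (SD, n = 2), on 27 and 22 fragments. The region 45.8 kb upstream (73749408 to 73749708) was in intron 1 of Elac1, 4936 bp from its TSS. It had folds of 5.52 and 5.41, a mean of 5.47 ± 0.0780 (SD, n = 2), on 16 and 11 fragments, and was the weakest region of the family. At both regions the replicates differed by less than counting error.

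Smad6 and Smad7, which encode the inhibitory SMADs, were the members with a shared region at their promoters. Smad6 lies on chromosome 9 (63953076 to 64022059, minus strand), and its shared region (64021945 to 64022270, 326 bp) covered the TSS, with its centre 19 bp downstream in the untranslated part of exon 1. Fold enrichment was 5.52 in replicate 1 and 13.5 in replicate 2, a mean of 9.53 ± 5.67 (SD, n = 2). The folds came from 16 fragments (9.15 to 26.0) and 29 fragments (19.4 to 41.6), and their counting intervals, 3.30 to 8.77 and 9.21 to 19.2, did not overlap. The summits of the replicates were 11 bp apart. The peak of replicate 1 was 120 bp wide, the smallest width in its list, and that of replicate 2 was 326 bp wide. With a reciprocal overlap of 50% required, this region was no longer shared. No other peak of either replicate lay in the Smad6 window. The next shared region was 171.6 kb away and nearest to Smad3 by curated transcripts.

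Smad7 lies on chromosome 18 (75367365 to 75395934, plus strand) and had 2 shared regions within 4 kb upstream of its TSS. The promoter region (75366799 to 75367244) was centred 237 bp upstream of the Smad7 TSS and, on the other strand, 40 bp upstream of the TSS of the noncoding gene Gm20544, which was therefore the nearest gene. Its folds were 7.47 and 10.4, a mean of 8.93 ± 2.05 (SD, n = 2), on 22 fragments in each replicate. The second region (75363056 to 75363763), 3981 bp upstream of Smad7, was in intron 6 of Gm20544. Its folds of 9.10 and 14.4 gave a mean of 11.8 ± 3.78 (SD, n = 2), on 27 and 31 fragments. Among protein-coding genes alone, Smad7 was the nearest gene to both, and regions nearest to a SMAD family gene then numbered 6 of 8. Every Smad7 peak had a partner in the other replicate, and the next shared region was 229 kb away.

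**Figure D3:**
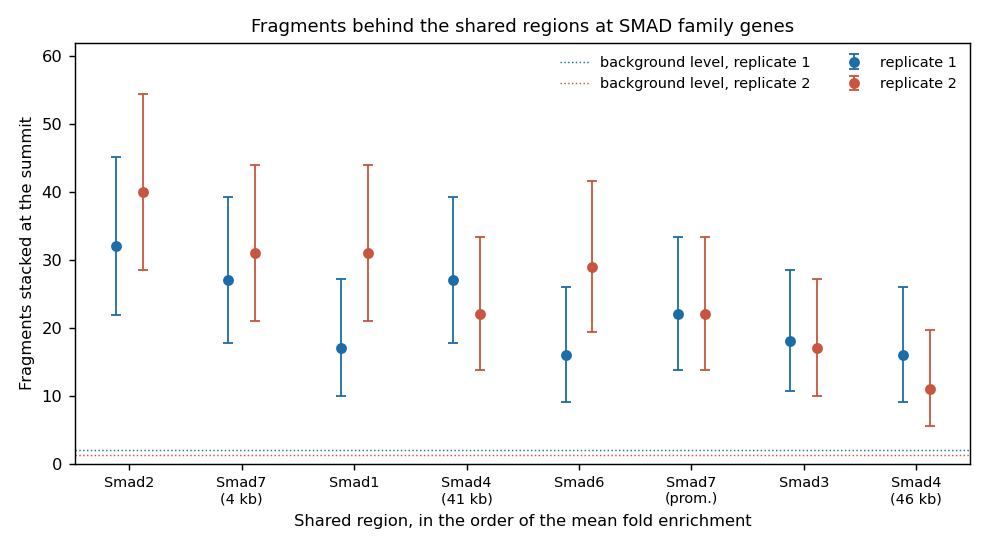
Fragments stacked at the summit (vertical axis) of the 8 shared regions in replicates 1 and 2, in the order of the mean fold enrichment, with exact 95% Poisson intervals as bars and the genome-wide background of each replicate (2.08 and 1.22 fragments) as dotted lines. All 16 summits lie above the background, which follows from their being called as peaks. They range from 11 fragments at the weaker Smad4 region to 40 at Smad2, and the bars of the replicates overlap at every region.

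In the order of the mean fold, the Smad2 region came first, followed by the Smad7 region 3981 bp upstream, Smad1 and the stronger Smad4 region. Smad6, the Smad7 promoter, Smad3 and the weaker Smad4 region came after these. The ranges of the replicates overlapped for 6 of the 7 neighbouring pairs. The exception was Smad3 (6.17 and 8.12) above the weaker Smad4 region (5.52 and 5.41), whose counting intervals overlapped, so no neighbours in the order were separated by both measures. The median of the mean fold was 9.63 over the 8 regions and 8.11 over all shared regions. Per replicate, the medians were 6.82 at the SMAD family genes and 6.82 over all regions in replicate 1, and 12.0 and 9.48 in replicate 2. The member regions ranged from the 14.4th percentile (the weaker Smad4 region) to the 79.0th (Smad2) of the mean fold over all shared regions. They had a median width of 415 bp against 440 bp, and their summits were a median of 35.5 bp apart between the replicates against 49 bp.

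Counting intervals of the fold did not overlap between the replicates for 3 of the 8 regions, Smad1, Smad2 and Smad6, with replicate 2 higher by 2.47, 2.27 and 2.45 times. Over all shared regions such non-overlap was found for 8.18%. The median ratio of 1.39 over all shared regions was not taken out in either count. At the other 5 regions the ratio of replicate 2 to replicate 1 ran from 0.980 (the weaker Smad4 region) to 1.59 (the Smad7 region 3981 bp upstream).

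**Figure D4:**
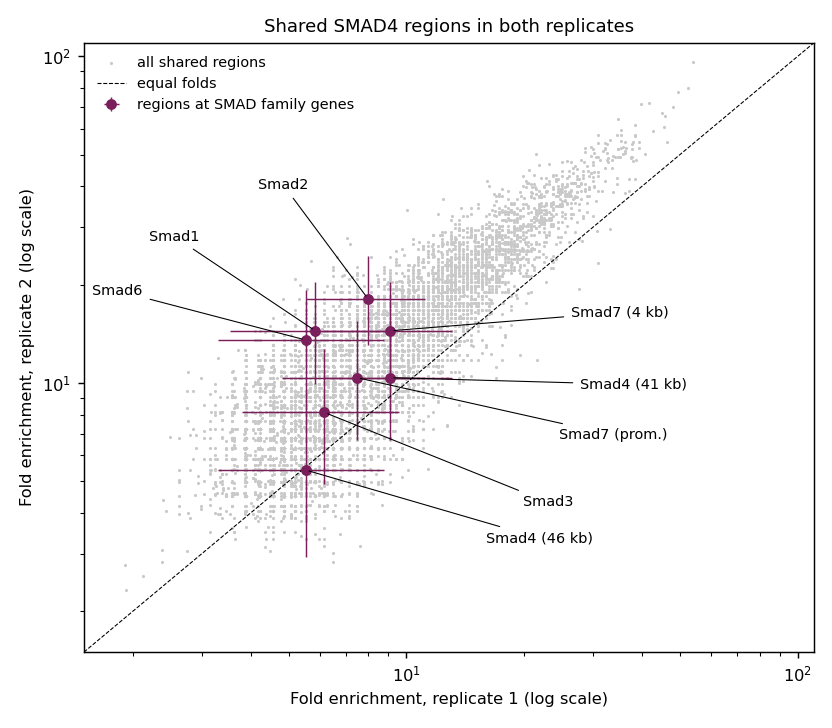
Fold enrichment of the 10964 shared regions (grey) in replicate 1 (horizontal axis) and replicate 2 (vertical axis), both on log scales, with the 8 regions at SMAD family genes in purple, their counting intervals as bars and equal folds as a dashed line. The Smad1 and Smad6 regions lie farthest above the dashed line, with replicate 2 at 2.47 and 2.45 times replicate 1, and the weaker Smad4 region lies on it at 0.980 times.

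Consensus strings were searched on both strands within 100 bp of the region centres, at the SMAD family genes and at all shared regions. The palindrome GTCTAGAC was in the windows of the Smad6 and Smad7 promoter regions and in 51 of the 10964 windows (0.465%). At Smad6 it ran across the TSS itself, from 4 bp upstream to 3 bp downstream, and at Smad7 it was 189 to 182 bp upstream of the TSS. In windows of 50 bp each side, 1 of these 2 matches was left, that of Smad6. Of the 51 regions, 6 were among the 704 promoter regions of the genome.

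C/EBP factors, which act in macrophage differentiation, read TTGCNNAA, and it was in 6 of the 8 windows and in 40.9% of all windows. At Smad6 the match was TTGCGCAA, 39 to 32 bp upstream of the TSS, and at the Smad7 promoter it began 233 bp upstream. Both promoter windows thus held the palindrome and the C/EBP string, as did 22 of the 51 regions with the palindrome. The Smad2 window had 2 C/EBP matches, with their middles 18 and 2 bp from its centre, and the STAT string TTCNNNGAA, which 8.06% of windows had. The RUNX string TGTGGTT was in the Smad1 and the stronger Smad4 windows, the 2 without a C/EBP match, and in 10.8% of all. Both matches were at the edge of their windows, 97 and 93 bp from the centre, and neither was within 50 bp of the centre or within 100 bp of the summit of replicate 1 alone. CACGTG, the E-box, was in the Smad7 promoter window and in 3.65% of all, 62 bp from the centre and so outside a window of 50 bp.

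Other strings were in none of the 8 windows: GAGGAAGT, read by PU.1 (8.0% of all windows), CAGGAAGT, read by other ETS factors (5.62%), TGACTCA or TGAGTCA, read by AP-1 (8.91%), AGGTCA, a nuclear receptor site (15.4%), and the other SMAD strings CAGACA (19.0%) and GGCGCC (1.01%). In windows of 200 bp each side, CAGACA was in 2 of the 8 and the AP-1 string in 1, and CAGACA was also in 1 window centred on the summit of replicate 1 alone. Matches of short strings are descriptions of the sequence and do not show which factor was bound. The centres of the Smad6 and Smad7 promoter regions were at 56.7% G and C over 201 bp, above 97.6% of all shared regions. All 8 windows had a median of 48.5% against 43.8% for all regions. The 250 bp upstream of the start, which the RefSeq promoter table gave for Smad1, Smad3, Smad5, Smad6 and Smad9, had between 60.0% (a Smad5 start) and 73.2% (Smad9) G and C, and of these 5 genes only Smad6 had a shared region there.

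Genes for the rest of the pathway were described by the same rule. Of 45 genes, 20 (44.4%) had a shared region and 13 (28.9%) had one nearest to their own TSS, beside 6 and 4 of the 8 SMAD family genes and 39.1% and 20.0% of all protein-coding genes. Among 9 ligand genes, Tgfb1 alone was reached, by 4 regions, all nearest to the TSS of another gene. The strongest had folds of 19.8 and 28.4 and was nearest to Ccdc97. Among 14 receptor genes 8 were reached, of which 4 had a region nearest to their own TSS. Tgfbr1, the type I receptor that phosphorylates SMAD2 and SMAD3, had 8 regions (strongest, 17.5 ± 5.89, SD, n = 2), Tgfbr2, its type II partner, had 5 (17.0 ± 6.58) and the activin receptor gene Acvr1c had 1 (11.6 ± 2.13). The receptor genes without a shared region were Tgfbr3, Eng, Acvr2b, Bmpr1b, Bmpr2 and the decoy receptor gene Bambi.

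Among 8 nuclear partners, 4 were reached, with mean folds of 27.4 ± 9.77 at Ski, 10.2 ± 3.42 at Skil and 9.09 ± 1.82 at Tgif1 (SD, n = 2 each), all corepressor genes. Tgif2 was the fourth, by a region nearest to Rab5if, and Foxh1, Ep300, Crebbp and Trim33 had none. Of 10 genes for anchors, ubiquitin enzymes and phosphatases of SMAD proteins, 4 were reached, at lower folds than the Ski region. These were Nedd4l (7.31 ± 1.15), Zfyve9 (7.27 ± 1.84), Smurf1 (6.43 ± 3.64) and Smurf2. The strongest region at Nedd4l was 184 kb from its TSS and nearest to Mir122. Zfyve16, Stub1, Usp9x, Usp15, Ppm1a and Pmepa1 had none. Among the classical target genes, Id1 (23.8 ± 13.0) and Id3 (23.1 ± 8.24) were reached, and Id2 was not. No region at Id3 was nearest to its own TSS, and the strongest was nearest to E2f2. The strongest SMAD family region, that of Smad2 at 13.0 ± 7.15, was below the strongest regions of Tgfb1, Tgfbr1, Tgfbr2, Ski, Id1 and Id3 in mean fold. Compared within each replicate, the Smad2 fold was also below that of each of these regions. Its replicate range (7.98 to 18.1) overlapped those of Id1 (14.6 to 32.9), Id3 (17.2 to 28.9), Tgfbr1 (13.3 to 21.7) and Tgfbr2 (12.3 to 21.7). It did not overlap those of Tgfb1 (19.8 to 28.4) and Ski (20.5 to 34.3).

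The labelled cell type was checked against marker genes by position only, since binding is no measure of expression. All 10 AM marker genes had a shared region, beside 39.1% of all protein-coding genes. So did 1 of 5 of alveolar type 2 and club cells, 2 of 5 of T cells, 1 of 4 of B cells, 3 of 5 of neutrophils and 2 of 3 of eosinophils. These other lists, at 20.0% to 66.7%, lay on both sides of the share of all genes. The alveolar type 2 and club cell gene was Scgb1a1, with 5 regions. The T cell genes were Cd8a and Cd2, and the paper counts Cd2 among the AM core genes. The part of other cells in the peaks of the SMAD family genes was not tested.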

How the data were processed

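Per the labels, 4 libraries were made from sorted AMs, and peak lists of the 2 SMAD4 libraries were used; the input libraries enter only through the control level. Replicate numbers follow accession order. The authors used Cutadapt for trimming, Bowtie2 for alignment to mm10, PICARD for duplicates, samtools for filtering (mapping quality above 30) and MACS3 for calling peaks per sample against input at a q-value of 0.05. The submitters' processing notes also name CASAVA and bcl2fastq. The deposited values per peak are a fold ratio over the control level, −log10 p and −log10 q-value at the summit, a score derived from q that was not used, and, as the other column, the offset of the summit in the peak. Suppliers of the antibodies differ between the labels and the study's methods.

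The SMAD family genes, the pathway lists, the markers and the strings were chosen with earlier results of these data known. Every member and each of its shared regions is named, peaks without a partner by the strongest per gene, and pathway groups by their 3 strongest and the genes not reached, except for a pathway gene that is not reported here. Peaks were placed on curated RefSeq transcripts of GRCm38 (45657 transcripts of 26089 genes). Shares over all protein-coding genes stand beside the members' counts. No significance test was made, since there was 1 condition. Library totals were not used here, and depth came from solving fold and p for whole fragments (all within 0.0014), and the recovery was tested on simulated data. Intervals are exact Poisson. Nearest genes, windows, overlap and strings were varied (closing section). Python 3.11.15, numpy 2.4.6, pandas 2.3.3, scipy 1.17.1, pysam 0.24.0, samtools 1.23.1 and matplotlib 3.10.9 were used.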

Additional observations from a re-analysis of the deposited data

How the results depend on the processing

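The number of shared regions at the SMAD family genes, 8, became 5 with a reciprocal overlap of 50%. The regions lost were those of Smad3 and Smad6 and 1 of the 2 at Smad7. The number was 2 in gene bodies alone, 4 within 10 kb and 17 within 100 kb of a TSS. Leaving out either replicate, so that all peaks of the other counted, gave 10 to 13. Genes with a region, 6, became 4 with 50% reciprocal overlap, 3 within 10 kb, 2 in bodies alone and 7 within 100 kb. Of all genes, 20.6% had one within 10 kb, 13.9% in bodies alone and 54.9% within 100 kb. With either replicate alone the gene count stayed at 6. Regions nearest to a SMAD family TSS, 4, became 2 with 50% reciprocal overlap, within 10 kb, in bodies alone or with predicted transcripts, 9 within 100 kb, and 6 to 9 with 1 replicate. The median fold, 9.63, was 15.7 as fragments over the genome-wide background, which is another ratio, and 6.82 to 12.0 with 1 replicate. String matches, 12, became 6 within 50 bp and 11 to 13 with 1 replicate. Other pathway genes reached, 20, became 32 within 100 kb and 23 to 29 with 1 replicate. Of the 43 values of these summary results under alternatives, 27 were close to the reported value and 16 moved. Close was a wide class for counts, since it held the fall from 6 genes to 4. No paired test was made, since no groups were compared. Folds of different regions are paired within a replicate, and such pairs were compared by value only. With 2 libraries and 11 to 40 fragments a summit, folds that differ by less than about their counting intervals could not be told apart.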
